A study of Homo sapiens with 14 samples.

Results

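The 4 HOX clusters of human cells, HOXA on chromosome 7, HOXB on chromosome 17, HOXC on chromosome 12 and HOXD on chromosome 2, were followed at the RNA level in HEK293T cells with and without SETD2. HEK293T is an established line from human embryonic kidney that makes the large T antigen of SV40. SETD2 is the enzyme that trimethylates histone H3 at lysine 36 over transcribed genes. Of the 14 samples in the series, the 6 RNA libraries were 3 of wild type HEK293T cells and 3 of HEK293T cells with a SETD2 knockout, grown alike at 37 oC with no treatment named; the 8 ChIP samples for H3K36me3 and H4K16ac are not used here. The labels do not say whether the knockout cells are 1 clone or a pool, nor whether each library is a culture of its own, so the authors' p-values may reflect technical spread alone. Members were all deposited rows whose hg19 locus overlapped 1 of 4 windows: chr7:27132000-27250000 (HOXA), chr17:46606000-46806200 (HOXB), chr12:54332000-54450000 (HOXC) and chr2:176957000-177056000 (HOXD). These were 230 of 204092 transcripts, at 24 of 35671 loci: 75 transcripts at 6 loci in HOXA, 74 at 9 in HOXB, 42 at 4 in HOXC and 39 at 5 in HOXD.

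HOX genes encode homeodomain transcription factors that give cells their position along the body axis. Genes of a cluster lie in the order in which they are used from head to tail, low-numbered paralog groups at one end and high-numbered groups at the other. Silent HOX chromatin is a classical target of Polycomb repression and active HOX chromatin of Trithorax-type methylation, and many HOX genes are active in the developing kidney. In RefSeq (GRCh38.p14), 39 HOX genes are listed, 11 in HOXA, 10 in HOXB, 9 in HOXC and 9 in HOXD. With increasing position HOXA ends at HOXA13 and HOXB at HOXB13, while the other 2 clusters start at HOXC13 and HOXD13, ending at HOXD1 and, in HOXC, with HOXC4, HOXC5 and HOXC6, whose spans overlap.

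A deposited locus is a stretch of overlapping transcripts, so the 24 loci are fewer than the 39 genes and several loci hold more than 1 gene and antisense transcripts. The files give transcript IDs without gene names, and 0 of the 230 member IDs matched either table of names used here. Loci are therefore named by cluster, by their number in order of increasing position and by hg19 position. The cluster windows came as hg19 positions. The positions of other genes were at hand only in GRCh38.p14, so the levels of SETD2, of kidney or other cell type markers, and of HOX cofactors, Polycomb and Trithorax genes were not analysed here, which leaves the knockout unchecked in the RNA.

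The clusters also carry microRNA genes, which are short RNAs that pair with messenger RNAs through a seed, bases 2 to 8 from the 5′ end. Sequences from RefSeq (GRCh38.p14) are shown for a pair of families that repeat across the clusters as the protein genes do, with the seed in capitals. The miR-10a gene, MIR10A, is nearest to HOXB3, and MIR10B is nearest to HOXD4. The miR-196a-5p sequence is listed for a gene nearest to HOXB9 and a gene nearest to HOXC10, and the miR-196b gene is nearest to HOXA10.
hsa-miR-10a-5p: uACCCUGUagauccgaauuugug
hsa-miR-196a-5p: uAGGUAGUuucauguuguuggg
hsa-miR-196b-5p: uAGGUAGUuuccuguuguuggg
The last 2 share their seed and differ at 1 base, A12C, counted from the 5′ end with the miR-196a base first. No deposited row could be paired with these genes, and no level is given for them.

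Values are FPKM, fragments per kilobase scaled to sequencing depth by the authors, given once per group and not per library. No read counts were given, so depth is unknown, and no spread between libraries can be computed. Each group appears in 2 deposited tables, the table of tests and the FPKM tracking table, which also gives a lower and an upper bound per transcript whose level is not stated. Wild type values of the tables are nearly proportional and knockout values are not. Values below are from the table of tests unless the tracking table is named.

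All 4 clusters were transcribed in both groups. Summed over loci, HOXA stood at 355.4 FPKM in the wild type and 316.2 FPKM in the knockout, a ratio of knockout to wild type of 0.890. HOXB stood at 340.4 FPKM in the wild type and 186.3 FPKM in the knockout, a ratio of 0.547. HOXC was the other way, with 105.0 FPKM in the wild type and 158.7 FPKM in the knockout, a ratio of 1.51. HOXD stood at 117.4 FPKM in the wild type and 108.9 FPKM in the knockout, a ratio of 0.928. HOXB was thus lower in the knockout and HOXC higher, while HOXA was close to its wild type level. HOXB held 37.1% of the summed FPKM of the 4 clusters in the wild type and 24.2% in the knockout, and HOXC held 11.4% and 20.6%. The knockout shares count a HOXD transcript, described below, at 0. The knockout total of the 4 clusters was 770.2 FPKM here and 854.0 FPKM in the tracking table, so these shares depend on the table. In RNA of whole cultures, fewer cells with a transcript and less of it per cell cannot be told apart.

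The tracking table gave the same picture for 3 clusters, with ratios of 0.900 for HOXA, 0.569 for HOXB and 1.52 for HOXC. For HOXD it gave 1.72, above 1. A single transcript, described below, is listed at 0 in the knockout in the table of tests only, and without it both tables gave HOXD a ratio above 1. Group sums permit no test, so these ratios describe the sequenced libraries.

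**Figure D1:**
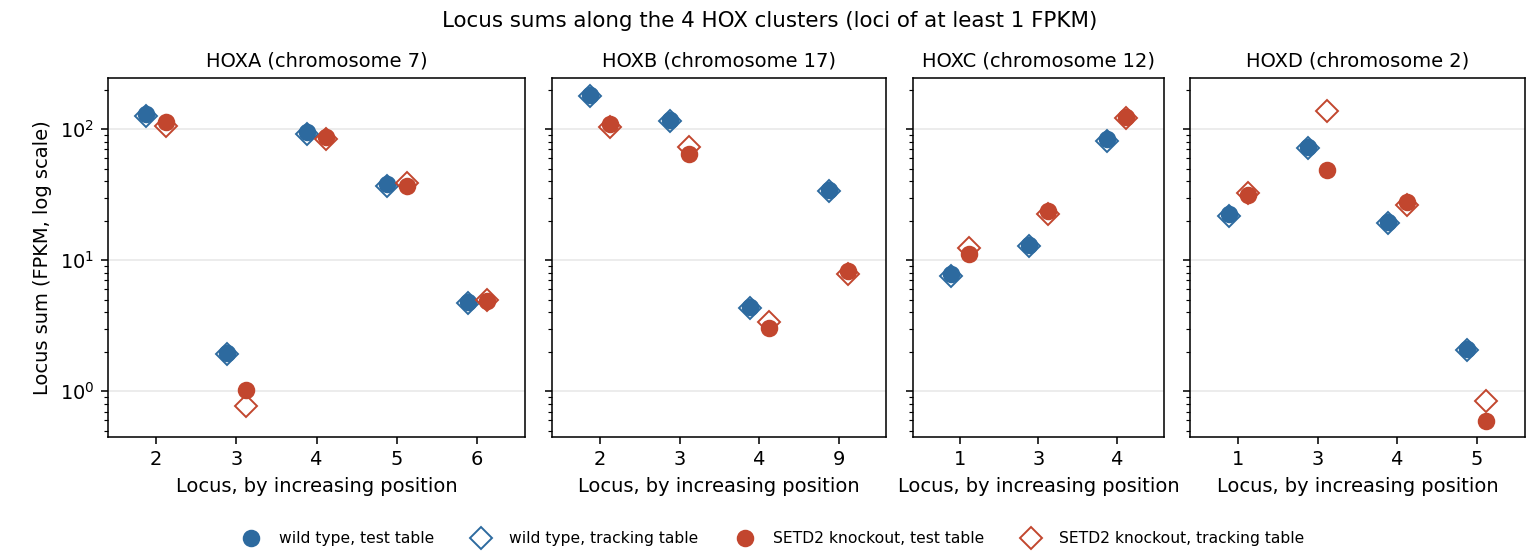
Sum of FPKM per locus on a log scale for loci that reached 1 FPKM in either group, numbered by increasing position among all loci of the cluster; blue is wild type, red is SETD2 knockout, filled circles are the table of tests and open diamonds the tracking table. Red lies below blue at every locus of HOXB shown and above blue at every locus of HOXC shown, and the tables disagree on locus 3 of HOXD. At locus 9 of HOXB this holds only with ENST00000583892 counted. The 1 locus that is not reported singly here is not shown.

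Of the 24 loci, 17 reached 1 FPKM in either group and were above 0 in both, called expressed below: 6 in HOXA, 4 in HOXB, 3 in HOXC and 4 in HOXD. The other 7 stayed at or below 0.506 FPKM in both groups. Among the 17, 6 were at least 1.5-fold lower in the knockout and 1 at least 1.5-fold higher. Over all 12467 expressed loci of the genome, 11.1% were at least 1.5-fold lower and 13.1% at least 1.5-fold higher, with a median log2 ratio of 0.06. Of these 6, 3 lay in HOXB, 2 in HOXD and 1 in HOXA, and the 1 higher locus lay in HOXC. Locus 9 of HOXB and locus 3 of HOXD were among the 6 through transcripts listed at 0 in the knockout (below). Locus 5 of HOXD, also among the 6, reached 1 FPKM in the wild type only, at 2.12 against 0.598 FPKM. None of its transcripts reached 1 FPKM by itself. By the tracking values, 5 of the 17 were at least 1.5-fold lower and 3 higher, with locus 3 of HOXD among the higher. Without transcripts listed at 0 in a group, 4 were lower and 2 higher, again with locus 3 of HOXD among the higher.

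HOXB is read here from the low-numbered end to the HOXB13 end. Locus 2, chr17:46618256-46683776, the widest of the cluster with 46 transcripts, stood at 183.2 FPKM in the wild type and 109.7 FPKM in the knockout, a ratio of 0.599. Locus 3, chr17:46684594-46712294, stood at 117.2 and 64.7 FPKM, a ratio of 0.552. Locus 4, chr17:46713285-46724385, was low in both groups, at 4.40 and 3.02 FPKM, and its leading transcript ENST00000433510 stood at 2.49 and 2.64 FPKM. The tracking table gave ratios of 0.583, 0.637 and 0.781 for these 3 loci. Loci 2 and 3 together carried most of the HOXB signal, and both were lower in the knockout in both tables. At locus 3 each of the 8 expressed transcripts, by the same rule, was lower in the knockout. At locus 2 it was 15 of 22, so its transcripts did not all move one way. Without the leading transcript the ratio was 0.603 at locus 2 and 0.630 at locus 3. In the tracking table these ratios were 0.567 and 0.781, so at locus 3 the rest was nearer to its wild type level there. Transcripts of a locus share reads, so the rest is not independent of the leading transcript. At each of these loci only 2 transcripts, the leading one included, had a lower bound above 0 in a group, so the rest is loosely estimated.

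The HOXB13 end differed from the rest of the cluster. Locus 9, chr17:46800530-46806540, stood at 34.3 FPKM in the wild type and 8.34 FPKM in the knockout. Of the wild type sum, 27.9 FPKM came from ENST00000583892, which the authors did not test and which is listed at 0 in the knockout in both tables. The other transcripts of locus 9 summed to 6.45 FPKM in the wild type and 8.34 FPKM in the knockout, a ratio of 1.29, and 1.26 in the tracking table. They were led by ENST00000290295 at 5.24 FPKM in the wild type and 6.15 FPKM in the knockout, with bounds of 3.10 to 7.14 FPKM and 3.90 to 8.78 FPKM that overlapped. The whole of HOXB without ENST00000583892 kept a ratio of 0.596. Between locus 4 and locus 9, loci 5 to 8 were near silent.

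A single member passed the authors' test at a q-value of 0.05, ENST00000311177 of HOXB locus 3. It stood at 70.4 FPKM in the wild type and 35.2 FPKM in the knockout and fell 2.00-fold (the authors' deposited table, p = 5e-05, q = 0.0220). In the tracking table its wild type value was 68.8 FPKM, bounded by 44.6 and 93.0 FPKM, and its knockout value 37.3 FPKM, bounded by 23.2 and 51.4 FPKM. These bounds overlapped, although the transcript was called. It made up 60.1% of its locus in the wild type and 54.4% in the knockout. Of the 167 member transcripts the authors tested this was the only call, beside 0.255% of all 85852 transcripts tested, of which 0.192% were lower in the knockout and 0.0629% higher. From 1 call nothing can be read about the members as a set.

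In HOXB locus 2 the transcript with the lowest p was ENST00000239151, at 16.4 FPKM in the wild type and 7.09 FPKM in the knockout (the authors' deposited table, p = 0.0352, q = 0.991). The leading transcript there, ENST00000225648, stood at 31.4 FPKM in the wild type and 18.2 FPKM in the knockout (the authors' deposited table, p = 0.05, q = 0.991). Neither passed the test.

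HOXC is read from the HOXC13 end. Locus 1, chr12:54329112-54340328, stood at 7.79 FPKM in the wild type and 11.1 FPKM in the knockout, a ratio of 1.42. Locus 3, chr12:54356092-54371427, stood at 13.0 and 23.6 FPKM, a ratio of 1.81, the highest of the 17 in this table. Its leading transcript ENST00000243082 stood at 4.88 FPKM in the wild type and 8.22 FPKM in the knockout, with bounds of 1.97 to 7.56 FPKM and 2.89 to 15.1 FPKM that overlapped. Locus 4, chr12:54375293-54449814, the widest locus of the 4 clusters with 31 transcripts, stood at 83.8 and 124.0 FPKM, a ratio of 1.48. The tracking table gave 1.63, 1.77 and 1.47. All 3 expressed loci of HOXC were thus higher in the knockout by similar ratios in both tables. Locus 2, between them, stayed below 1 FPKM.

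No HOXC transcript passed the test. The lowest p was that of ENST00000424518 at locus 3, at 3.54 FPKM in the wild type and 7.69 FPKM in the knockout (the authors' deposited table, p = 0.00365, q = 0.572). ENST00000243056, which made up 84.5% of locus 1 in the wild type and 85.1% in the knockout, stood at 6.58 FPKM in the wild type and 9.43 FPKM in the knockout (the authors' deposited table, p = 0.0444, q = 0.991). At locus 4 no transcript stood out: the leading one, ENST00000609810, held 13.7% of the wild type sum and 8.65% of the knockout sum, at 11.5 and 10.7 FPKM. Without it the ratio of the locus was 1.57, and 17 of its 21 expressed transcripts were higher in the knockout.

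HOXD is also read from its HOXD13 end. Locus 1, chr2:176957619-176960666, has a single transcript, ENST00000392539, at 22.4 FPKM in the wild type and 31.6 FPKM in the knockout, a ratio of 1.41 (the authors' deposited table, p = 0.0179, q = 0.991). Locus 4, chr2:176986339-177037830, stood at 19.5 and 27.7 FPKM, a ratio of 1.42, and each of its 7 expressed transcripts was higher in the knockout, led by ENST00000249499 at 7.84 and 8.85 FPKM. The tracking table gave ratios of 1.48 and 1.39 for these 2 loci. Locus 5, chr2:177037923-177055688, at the HOXD1 end, was the exception, at 2.12 FPKM in the wild type and 0.598 FPKM in the knockout, and at 2.07 and 0.842 FPKM in the tracking table. Its transcript ENST00000416928 had the second lowest p of all members, at 0.997 FPKM in the wild type and 0.312 FPKM in the knockout (the authors' deposited table, p = 0.00120, q = 0.262). Locus 2 stayed below 1 FPKM.

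Locus 3 of HOXD, chr2:176968944-176984670, decided the sum of the cluster. Its transcript ENST00000401374 stood at 43.7 FPKM in the wild type and is listed at 0 in the knockout (the authors' deposited table, p = 0.144, q = 0.991). In the tracking table it stood at 42.6 FPKM in the wild type and 91.3 FPKM in the knockout, where its bounds were 28.1 to 57.2 FPKM and 78.6 to 103.9 FPKM. The tables therefore give opposite directions for it. The other 5 transcripts of the locus summed to 29.4 FPKM in the wild type and 48.5 FPKM in the knockout, a ratio of 1.65, and 1.59 in the tracking table. They included ENST00000249501 at 9.59 FPKM in the wild type and 14.9 FPKM in the knockout and ENST00000249504 at 5.99 and 9.45 FPKM, neither past the test. Without ENST00000401374 the sum of HOXD was 73.6 FPKM in the wild type and 108.9 FPKM in the knockout, a ratio of 1.48 and of 1.47 in the tracking table. HOXD without this transcript thus stood at about the ratio of HOXC.

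HOXA is read with increasing position towards HOXA13. Locus 2, chr7:27145803-27197555, with 35 transcripts, stood at 129.8 and 113.8 FPKM, a ratio of 0.877. Locus 4, chr7:27202054-27219880, stood at 94.6 and 86.5 FPKM, a ratio of 0.914. Locus 5, chr7:27221129-27233067, stood at 38.0 and 36.5 FPKM, a ratio of 0.963. Locus 6 at the HOXA13 end, chr7:27233122-27246878, stood at 4.80 and 4.87 FPKM, a ratio of 1.02. In the tracking table the ratios of these 4 loci were 0.829, 0.904, 1.04 and 1.07. The small locus 3, chr7:27197963-27198595, with 1 transcript, stood apart at a ratio of 0.522, with ENST00000602610 at 1.96 FPKM in the wild type and 1.02 FPKM in the knockout.

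Within HOXA no transcript passed the test. ENST00000222726, the leading transcript of locus 2, stood at 41.7 FPKM in the wild type and 31.1 FPKM in the knockout. ENST00000343483 led locus 4 at 21.3 and 13.0 FPKM, while the rest of that locus summed to 73.3 and 73.5 FPKM. ENST00000006015, the leading transcript of locus 5, stood at 16.6 and 12.7 FPKM, while the rest of that locus had a ratio of 1.11. ENST00000222753 led locus 6 at 3.26 and 3.67 FPKM. Of these 4 leading transcripts, 3 were lower in the knockout and 1 was higher.

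**Figure D2:**
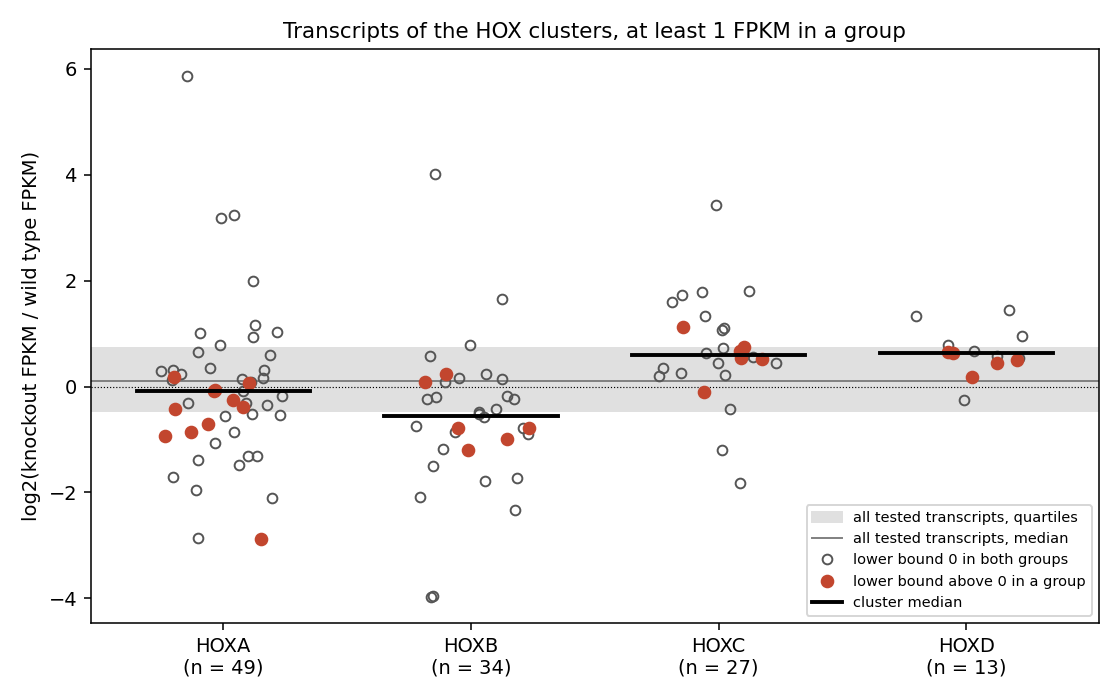
Log2 ratio of knockout to wild type FPKM for each expressed transcript, by cluster, with the cluster median as a bar; filled points have an authors' lower bound above 0 in a group, and the grey band and line give the quartiles and the median of all tested transcripts chosen alike. The HOXB median is at -0.55 and the HOXC and HOXD medians are at 0.60 and 0.64.

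Counted by expressed transcripts, 24 of 34 in HOXB were lower in the knockout, with a median log2 ratio of -0.55. In HOXC 23 of 27 were higher, with a median of 0.60, and in HOXD 12 of 13 were higher, with a median of 0.64. HOXA was near even, with 27 lower and 22 higher and a median of -0.08. Over all 56292 tested transcripts chosen alike, 55.4% were higher and the median was 0.11. Transcripts of a locus share reads, so these counts are not independent observations. In the tracking table, of the same transcripts, 26 of 34 were lower in HOXB, 25 of 27 higher in HOXC and 13 of 13 higher in HOXD.

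Most of these single values are loosely estimated. Of the 123 transcripts counted, 95 had a lower bound of 0 in both groups. Among the 28 others, 9 of 11 in HOXA and 4 of 6 in HOXB were lower in the knockout, and 5 of 6 in HOXC and 5 of 5 in HOXD were higher, against 50.9% lower over all 16511 transcripts chosen alike. The 4 of 6 in HOXB are near that share and carry no direction of their own. Summed, the 11 in HOXA had a ratio of 0.781, further from 1 than the 0.890 of the whole cluster. In HOXD 2 of its 7 transcripts with such a bound are outside the 5, ENST00000401374, listed at 0 in the knockout, and ENST00000416928, under 1 FPKM in both groups, and both were lower in the table of tests. Summed with them, the 7 had a ratio of 0.736 in that table. The bounds of the groups were apart for 0 of the 123, beside 0.401% of all transcripts chosen alike. Transcripts listed at 0 in a group are outside that count. Among them the bounds were apart for ENST00000401374, higher in the knockout by the tracking values, and for ENST00000583892. The latter was bounded by 24.4 and 29.8 FPKM in the wild type and stood at 0 in the knockout.

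**Figure D3:**
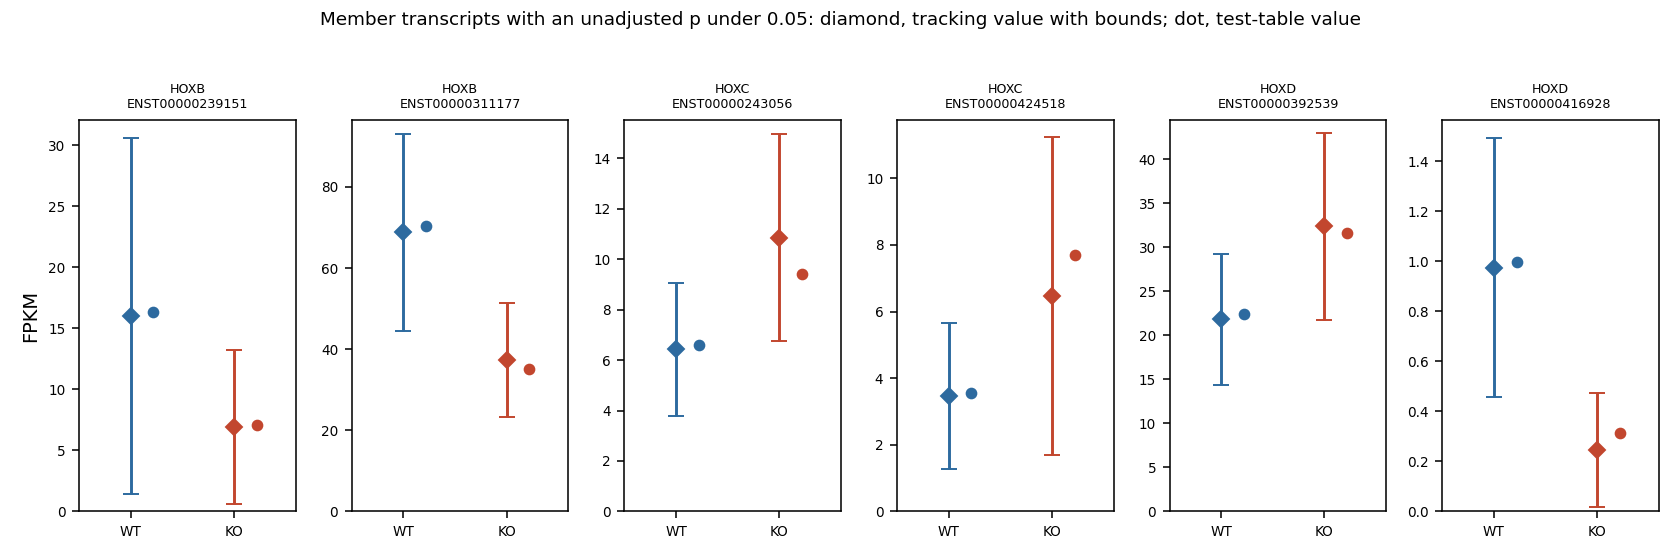
FPKM of the HOXB, HOXC and HOXD transcripts with an unadjusted p under 0.05 in the authors' deposited table, in the wild type (WT, blue) and the SETD2 knockout (KO, red), each panel on its own axis from 0; diamonds with bars are tracking-table values with the authors' bounds and dots are values of the table of tests. The bounds overlap in each panel, that of the called ENST00000311177 included.

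An unadjusted p under 0.05 was deposited for 7 of the 167 tested members, beside 2.38% of all tested transcripts. In the knockout 4 were lower, beside 1.57% of all, and 3 were higher, beside 0.817%. They were 1 in HOXA and 1 in HOXD that were lower along with 2 in HOXB, and 2 in HOXC and 1 in HOXD that were higher.

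As a description, each cluster was set beside the expressed loci within 1 Mb of its window. Whether a cluster followed its chromosome was not tested. Around HOXB, 24 such loci had a median log2 ratio of 0.10, against -0.80 over the 4 expressed loci of HOXB, and 1 of the 24 had a lower ratio than the HOXB sum. The 4 include locus 9, whose ratio of knockout to wild type was 1.29 without ENST00000583892. Around HOXC, 25 loci had a median of 0.05, against 0.57 over the 3 expressed loci of HOXC, and 2 of the 25 had a higher ratio than the HOXC sum. The sides of HOXC differed: the 19 loci below its window had a median of 0.16 and the 6 above it one of -0.81. Around HOXA, 9 loci had a median of 0.05 against -0.16 in the cluster, and around HOXD, 7 loci had a median of 0.17 against -0.05 in the cluster, where the table in use for ENST00000401374 decides the sign. Over the rest of chromosomes 7, 17, 12 and 2 the medians were 0.05, 0.04, 0.12 and 0.13. HOXB and HOXC thus lay away from the medians of the loci around them, a difference that could not be tested from group values. The log2 ratios of those loci ran from -1.17 to 3.36 around HOXB and from -3.33 to 0.77 around HOXC.

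**Figure D4:**
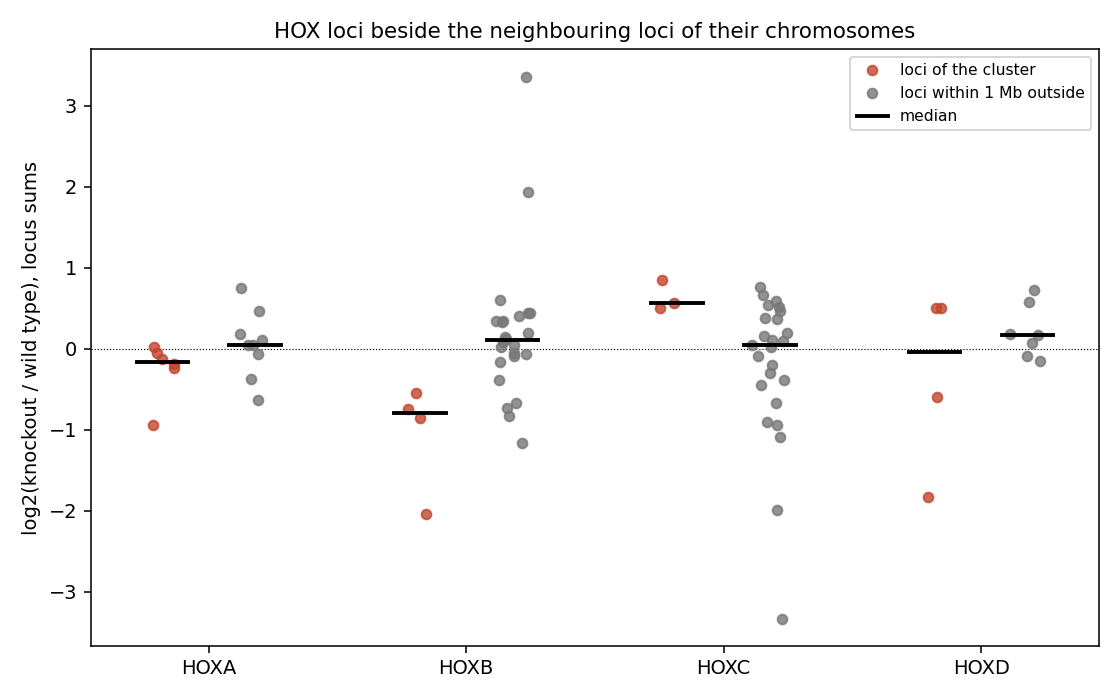
Log2 ratio of knockout to wild type locus sums for the expressed loci of each cluster (red) and the expressed loci within 1 Mb outside its window (grey), with medians as bars. The 4 HOXB loci lie below 0 and the 3 HOXC loci above 0, while the loci around both clusters lie on both sides of 0. Locus 9 of HOXB, the lowest of the 4, lies below 0 only with ENST00000583892 counted.

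Of the 230 members, 34 (14.8%) were listed at 0 in the knockout only and 5 (2.17%) in the wild type only. Over all transcripts without a failed estimate the shares were 14.8% and 3.66%, so the members were close to the rest. Most were very low in the other group, with 9 of them at 1 FPKM or more there. Of the 34, 9 were above 0 in the knockout in the tracking table.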

How the data were processed

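RNA libraries were made after removal of ribosomal RNA, per the labels' protocols, except that the label of 1 wild type library describes ChIP. Bowtie 1.1.2, Cuffdiff, TopHat and build hg19 are listed, per the submitters' processing notes, with no role; which annotation was used is not stated there. The authors deposited FPKM per transcript and group, with bounds in the tracking table. Their table of tests holds, per the file headers, FPKM of both groups, the log2 fold (wild type divided by knockout), a score as test statistic, and for each transcript its p-value and q-value. The tables named for genes and for transcripts were identical.

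FPKM were summed per locus and cluster, and ratios were taken as knockout over wild type without a pseudocount. The files count starts from 0, so 1 was added. Loci with a failed estimate were left out of all-locus values; the clusters held 0. Calls are the authors' q-value at 0.05. No test of these group values was made. The rule for named items took every expressed locus (1 FPKM or more in either group) with its leading transcript and every called member; 1 locus enters the sums and counts but is not reported singly here; other transcripts named were chosen after their values were seen, as were the 2 listed at 0. The members and lists were chosen with earlier results of these data known. Summing was checked on simulated shifts, fixed within each cluster, which checks the code only. Python 3.11.15, pandas 2.3.3, numpy 2.4.6 and matplotlib 3.10.9 were used.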

Additional observations from a re-analysis of the deposited data

Results flagged for a closer look

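In the tracking table, which the report gives second to the table of tests, ENST00000401374 of HOXD locus 3 stood at 91.3 FPKM in the knockout, above its wild type value of 42.6 FPKM there, while the table of tests lists the knockout at 0. It was the 1 member listed at 0 for the knockout in the table of tests with at least 1 FPKM in the tracking table.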

How the results depend on the processing

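Of 59 alternatives over 13 results, 52 kept the direction and stayed within 1.5 times of the reported value, a bound used because group values give no spread. They include every alternative run for the sums, medians and numbers of expressed loci of HOXA, HOXB and HOXC. Some of the 52 could not differ from the reported value. HOXA, HOXC and HOXD had no locus of 300 bases or less to leave out, and HOXA and HOXD none reaching outside the window. HOXA had no locus under 1 FPKM for a filter to remove. Division by the summed FPKM of nuclear loci over 300 bases multiplied every cluster ratio by the same factor, from 0.890 to 0.898 for HOXA. The count of 52 therefore overstates what was put to the test. The 2 alternatives on transcripts listed at 0 or with a lower bound above 0, and the medians over transcripts, were chosen after the data were seen. HOXD turned direction with some of these and also with others that were not among them. Those others were the tracking table, leaving out its highest locus and applying no filter on low values. Its log2 sum ratio of -0.11 became 0.78 in the tracking table, 0.45 without its highest locus, which holds ENST00000401374, and 0.59 without transcripts listed at 0, but -0.44 over transcripts with a lower bound above 0, which keep ENST00000401374. The median log2 ratio of its loci, -0.05, became 0.52 in the tracking table, 0.64 over transcripts and, with no filter on low values, 0.50, since locus 2 then entered. At a q-value of 0.01 the number of called members was 0 instead of 1 (the authors' deposited table; 7 members had an unadjusted p under 0.05), since the called member has q = 0.0220. Failed estimates could not be varied because no member had one. No paired analysis was possible because the files give no value per library, and for the same reason no replicate could be left out. Depth is unknown, so no detection limit could be given.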
